A study of Mus musculus with 10 samples.

Results

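Serpins are protease inhibitors, and the genes described here are 9 mouse serpins of clade B and of the a3 branch of clade A: Serpinb9, Serpinb6a, Serpinb6b, Serpinb1a, Serpinb8, Serpina3n, Serpina3g, Serpina3m and Serpina3k. They were taken by name from the platform's gene annotation, using only array features (transcript clusters, the sets of probes that read 1 transcript) annotated with exactly 1 gene symbol, and the cluster with the highest mean over all arrays where a gene had several. Of the 9 genes, 6 were measured in this way among 22180 genes in all, and Serpina3g, Serpina3m and Serpina3k were not analysed here. RNA was profiled on 10 expression arrays: 3 of hepatocyte-like cells differentiated from embryonic stem cells (ES_HLC), 3 of adult hepatocytes taken from liver (Ad_Hep) and 4 of undifferentiated embryonic stem cells (mESC). The title of the study concerns the receptor NKG2D in the recognition and killing of hepatic cells derived from pluripotent cells, so the inhibitors of killer-cell proteases bear on its question. All 10 samples, adult cells included, are labelled with the transgene Tg(CAG-luc, GFP)L2G85Chco on the C.FVB background, laboratory code FathJ, and with a passage under 20, so every group has the luciferase and GFP transgene driven by the broadly active CAG promoter. No treatment, time, animal age or sorting step is given in the labels. Nothing in them says whether the arrays called biological replicates came from separate cultures or animals. The p-values therefore set a difference between group means against the spread among these samples only.

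A serpin traps its target protease by offering an exposed reactive loop as bait: the protease cuts the loop and stays bound to the inhibitor. Clade B serpins lack a classical secretion signal and act mainly inside cells, where mouse Serpinb9 blocks granzyme B, the protease that natural killer cells and cytotoxic T cells deliver into their targets with perforin. Mouse Serpinb6b has been described as an inhibitor of granzyme A, and mouse Serpinb9b as an inhibitor of granzyme M. Serpina3n is a secreted acute phase protein of the liver and can inhibit granzyme B outside cells.

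The arrays followed their labels in part. Levels are deposited log2 values, so a difference of 1 is a doubling, and genes are said to have risen or fallen at an adjusted p under 0.05 in limma with a log2 difference of at least 1. A level under 5.5 was taken as dim. No probe was tested against background, so a fold against a group with a mean at such a level is a fold of the deposited values only. This holds for mESC in Serpinb9, Serpinb6b, Serpinb8, Serpinb1a and Serpina3n. It also holds for Ad_Hep in Serpinb6b and Serpinb8, and for ES_HLC in Serpinb1a. Of 12 hepatocyte markers, 12 rose in Ad_Hep and 4 rose in ES_HLC over mESC, and all 12 were lower in ES_HLC than in Ad_Hep. Of 10 stem cell markers, 9 fell in each of ES_HLC and Ad_Hep against mESC. ES_HLC replicate 3 stood apart from its group: albumin was at 10.80 there, against 4.85 and 5.14 in ES_HLC replicates 1 and 2. Markers of stellate cells and fibroblasts (9 of 13), of trophoblast and parietal endoderm (6 of 10) and of cholangiocytes (3 of 5) rose in ES_HLC over mESC. The cholangiocyte markers averaged 6.90 to 7.71 in ES_HLC arrays, 4.74 to 4.88 in Ad_Hep arrays and 5.55 to 5.72 in mESC arrays, and the part of these cell types in the ES_HLC results was not tested. Markers of Kupffer cells and macrophages (10 of 13, with 1 that fell) and of endothelium (7 of 10, with 2 that fell) rose in Ad_Hep over mESC. The samples are bulk RNA, in which fewer cells of a type and less RNA per cell cannot be told apart.

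The mouse serpins of these clades lie in groups of related copies, and the sequence before the gene start shows how alike such copies can be. RefSeq on GRCm38.p6 lists 17 such genes on chromosome 13, of which 15 were measured, 14 Serpina3 genes on chromosome 12, of which 5 were measured, and 12 clade B genes on chromosome 1, of which 10 were measured. The 250 bases before the start, 5′ to 3′ on the gene's own strand, are printed for Serpinb9 and its neighbour Serpinb9b, and for Serpina3n and its copy Serpina3c, because these pairs differ in how alike they are. Capitals mark matches to the motifs searched.
Serpinb9, chr13:33004291-33004540, + strand: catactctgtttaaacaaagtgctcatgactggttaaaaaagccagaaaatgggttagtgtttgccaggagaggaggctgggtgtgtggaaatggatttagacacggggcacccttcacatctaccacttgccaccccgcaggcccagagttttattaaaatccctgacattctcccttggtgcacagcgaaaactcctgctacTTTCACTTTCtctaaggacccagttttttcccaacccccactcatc
Serpinb9b, chr13:33027164-33027413, + strand: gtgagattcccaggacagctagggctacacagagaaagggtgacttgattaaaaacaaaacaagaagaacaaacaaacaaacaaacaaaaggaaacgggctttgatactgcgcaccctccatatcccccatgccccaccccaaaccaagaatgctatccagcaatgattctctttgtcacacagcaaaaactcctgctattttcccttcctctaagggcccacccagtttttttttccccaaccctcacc
Serpina3n, chr12:104406458-104406707, + strand: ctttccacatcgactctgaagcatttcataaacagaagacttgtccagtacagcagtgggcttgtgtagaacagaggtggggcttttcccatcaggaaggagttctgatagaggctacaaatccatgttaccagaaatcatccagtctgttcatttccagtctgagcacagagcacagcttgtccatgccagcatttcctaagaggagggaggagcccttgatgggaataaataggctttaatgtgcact
Serpina3c, chr12:104153873-104154122, - strand: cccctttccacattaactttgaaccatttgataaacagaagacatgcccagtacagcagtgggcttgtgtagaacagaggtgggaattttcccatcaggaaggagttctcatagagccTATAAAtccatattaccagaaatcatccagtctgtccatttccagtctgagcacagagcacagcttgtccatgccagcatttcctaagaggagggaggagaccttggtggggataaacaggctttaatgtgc

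The Serpina3n and Serpina3c windows were 92.7% identical over 247 aligned bases, and those of Serpinb9e and Serpinb9f 99.1% over 235. The Serpinb9 and Serpinb9b windows were 68.1% identical over 226 aligned bases. For 120 pairs of a clade A3 and a clade B window the range was 52.7% to 68.7% (median 60.6%). The Serpinb9 and Serpinb9b value thus lay close to the top of that range, which was set by Serpina3f and Serpinb9f over 201 aligned bases. The capitals in Serpinb9, with their first base 46 bases before the start, are a match on the opposite strand to the interferon-stimulated response element (GAAA, any 2 bases, GAAA), which 2.98% of all 32851 windows of the same length hold. A window of Serpinb6a also holds a match to this motif, 84 bases before the start, overlapping a GAS match at 77. The capitals in Serpina3c match TATAAA, held by 12.4% of windows. The other motifs searched on both strands were TTCNNNGAA (GAS, 7.02% of windows), TTGCNNAA (C/EBP, 9.56%), CCAAT (33.8%) and the NF-kB motif (7.25%), and none of them matched in these 4 windows. A match is a description of the letters and not a site of binding. No sequence of the array probes was used, so how far a probe reads a near-identical copy was not tested.

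Serpinb9, the granzyme B inhibitor, was highest in ES_HLC and lowest in mESC. Its level was 6.75, 7.51 and 8.36 in ES_HLC, 6.22, 5.78 and 6.13 in Ad_Hep, and 4.77, 4.84, 5.06 and 5.49 in mESC. The 3 groups did not overlap, and ES_HLC was the most spread of them, with means of 7.54 ± 0.81 in ES_HLC (SD, n = 3), 6.05 ± 0.23 in Ad_Hep (SD, n = 3) and 5.04 ± 0.32 in mESC (SD, n = 4). ES_HLC exceeded mESC by 2.50 ± 0.31 (SE) on the log2 scale, a 5.67-fold difference (limma, adjusted p = 6.22e-05). ES_HLC exceeded Ad_Hep by 1.50 ± 0.33, or 2.82-fold (adjusted p = 0.0032). Both calls held without ES_HLC replicate 3, at 2.09 (adjusted p = 1.04e-04) and 1.09 (adjusted p = 0.00896).

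The rise of Serpinb9 in Ad_Hep over mESC was close to the threshold. It was 1.01 ± 0.31, or 2.01-fold (adjusted p = 0.0199), and the 95% interval ran from 0.33 to 1.69. The call was lost without Ad_Hep replicate 1 (0.92, adjusted p = 0.0683), Ad_Hep replicate 3 (0.96, adjusted p = 0.0657), mESC replicate 1 (0.92, adjusted p = 0.0521) or mESC replicate 2 (0.94, adjusted p = 0.0505), and also with arrays centred on their median (0.91) or weighted (0.93). Macrophage markers moved with it, averaging 6.15 to 6.38 in Ad_Hep arrays and 4.70 to 4.83 in mESC arrays. Ptprc, the CD45 of all white blood cells, rose by 1.16. Of the 14 T, B and natural killer cell markers, among which Ptprc was counted, 1 rose and 2 fell in Ad_Hep over mESC. These 14 averaged 4.49 to 4.68 in Ad_Hep arrays and 4.60 to 4.94 in mESC arrays. The part of such cells in the result was not tested. In ES_HLC the macrophage markers averaged 4.71 to 4.77 (1 of 13 rose and 1 fell over mESC) and those of T, B and natural killer cells 4.16 to 4.35, below the 4.60 to 4.94 of mESC.

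**Figure D1:**
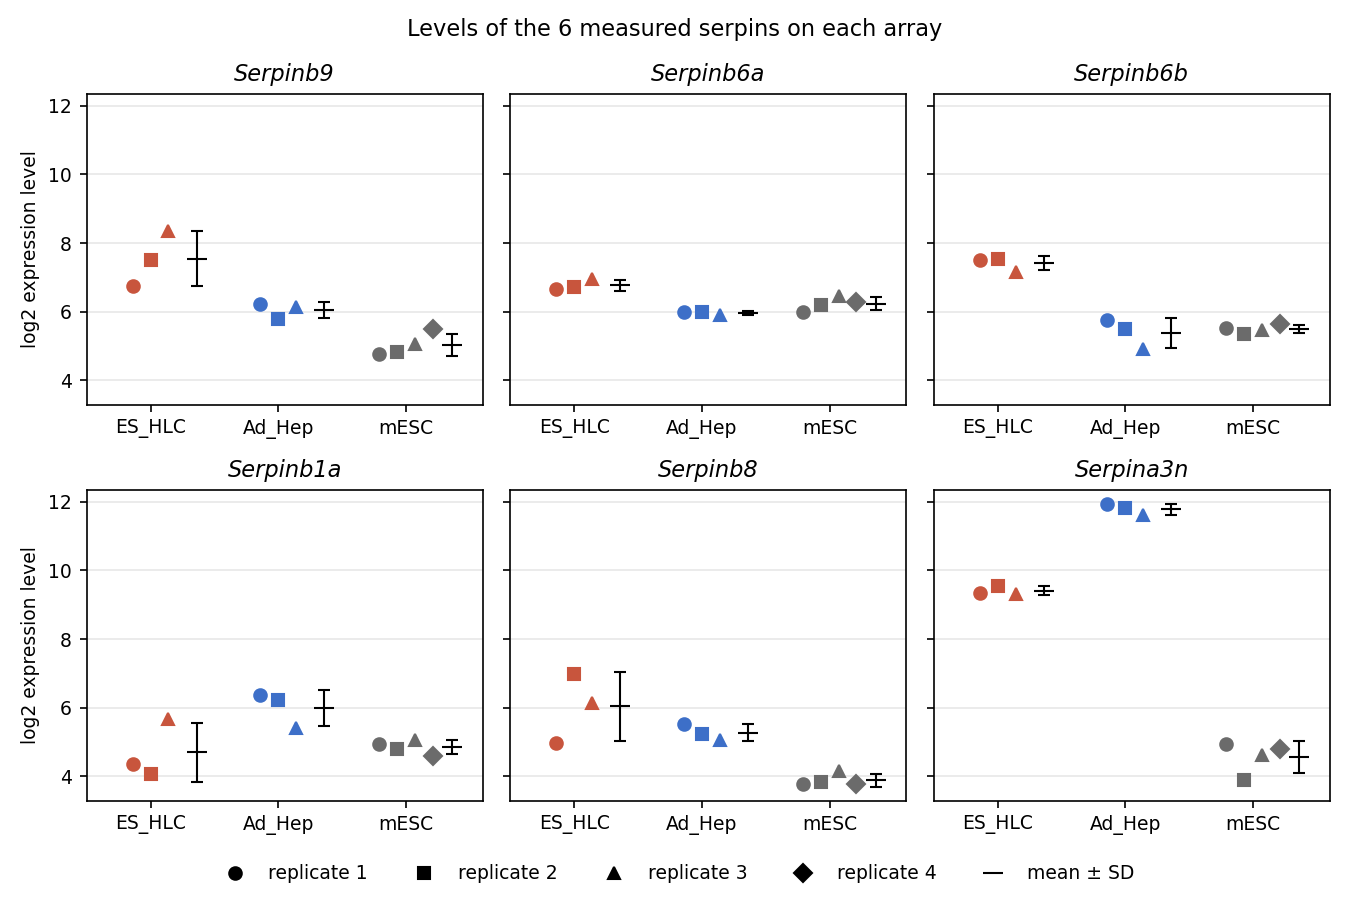
Log2 expression level of the 6 measured serpins on each of the 10 arrays, 1 panel a gene, with ES_HLC, Ad_Hep and mESC from left to right. Points are arrays and the bars give the group mean ± SD. Serpina3n was at 9.31 to 9.55 in ES_HLC, 11.60 to 11.92 in Ad_Hep and 3.90 to 4.95 in mESC.

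Serpinb6b, the mouse granzyme A inhibitor, was high in ES_HLC alone among the 3 groups. Its level was 7.52, 7.53 and 7.17 in ES_HLC, 5.77, 5.49 and 4.90 in Ad_Hep, and 5.53, 5.35, 5.48 and 5.63 in mESC. Every ES_HLC array lay above every other array, while Ad_Hep and mESC overlapped. The difference was 1.91 ± 0.20 between ES_HLC and mESC, or 3.76-fold (adjusted p = 1.54e-05). Between ES_HLC and Ad_Hep it was 2.02 ± 0.22, or 4.06-fold (adjusted p = 7.92e-06). Ad_Hep and mESC differed by -0.11 ± 0.20 (adjusted p = 0.714), with a 95% interval of -0.55 to 0.33, and the sign turned without Ad_Hep replicate 3 (0.13, adjusted p = 0.641).

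Serpinb6a, whose human counterpart SERPINB6 inhibits cathepsin G and trypsin-like proteases, moved little. It was at 6.65, 6.71 and 6.94 in ES_HLC, 5.99, 5.99 and 5.90 in Ad_Hep, and 6.01, 6.19, 6.45 and 6.30 in mESC. ES_HLC lay above both other groups on every array, by differences that passed the p threshold and not the size threshold: 0.81 ± 0.16 over Ad_Hep (adjusted p = 0.0017) and 0.53 ± 0.15 over mESC (adjusted p = 0.0191). Ad_Hep and mESC differed by -0.27 ± 0.15 (adjusted p = 0.19). A further cluster annotated to both Serpinb6a and another gene symbol was left out.

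Serpinb8, whose human counterpart inhibits the proprotein convertase furin, rose in both ES_HLC and Ad_Hep over mESC. It was at 4.98, 6.99 and 6.14 in ES_HLC, 5.54, 5.23 and 5.05 in Ad_Hep, and 3.77, 3.82, 4.15 and 3.79 in mESC. Every ES_HLC and Ad_Hep array lay above every mESC array, and ES_HLC overlapped Ad_Hep. ES_HLC exceeded mESC by 2.16 ± 0.35, or 4.46-fold (adjusted p = 4.64e-04), and Ad_Hep exceeded mESC by 1.39 ± 0.35, or 2.62-fold (adjusted p = 0.00578). The means of Ad_Hep (5.27) and mESC (3.88) were both under the dim level. ES_HLC and Ad_Hep differed by 0.77 ± 0.37 (adjusted p = 0.137), with a 95% interval of -0.05 to 1.58, and this difference passed both thresholds without ES_HLC replicate 1 (1.30, adjusted p = 0.00185). Furin itself rose by 2.34 ± 0.35 in ES_HLC and by 2.57 ± 0.35 in Ad_Hep over mESC.

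Serpinb1a, an inhibitor of the neutrophil proteases elastase, proteinase 3 and cathepsin G, was higher in Ad_Hep than in the other groups. Its level was 4.37, 4.07 and 5.68 in ES_HLC, 6.38, 6.22 and 5.40 in Ad_Hep, and 4.94, 4.79, 5.07 and 4.60 in mESC. ES_HLC overlapped both other groups through its replicate 3. Ad_Hep exceeded mESC by 1.15 ± 0.34, or 2.22-fold (adjusted p = 0.0162), a call lost without Ad_Hep replicate 1 (0.96, adjusted p = 0.0727) or 2 (1.04, adjusted p = 0.0676). ES_HLC lay below Ad_Hep by -1.29 ± 0.37 (adjusted p = 0.0144). That call was lost without ES_HLC replicate 1 (-1.12), ES_HLC replicate 2 (-0.97), Ad_Hep replicate 1 (-1.10) or Ad_Hep replicate 2 (-1.18), at adjusted p-values of 0.0533, 0.0636, 0.0586 and 0.0569 in that order, and without ES_HLC replicate 3 it was -1.78 (adjusted p = 3.31e-04). ES_HLC and mESC differed by -0.14 ± 0.34 (adjusted p = 0.83), with an interval of -0.89 to 0.60. None of the 11 neutrophil and mast cell markers was called in any of the 3 comparisons.

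Serpina3n changed most among the 6 genes. It was at 9.35, 9.55 and 9.31 in ES_HLC, 11.92, 11.82 and 11.60 in Ad_Hep, and 4.95, 3.90, 4.64 and 4.80 in mESC. The 3 groups were far apart. ES_HLC and Ad_Hep were tight, with SDs of 0.13 and 0.16, and mESC was more spread, with an SD of 0.47. ES_HLC exceeded mESC by 4.83 ± 0.23 (adjusted p = 1.97e-08). Ad_Hep exceeded mESC by 7.21 ± 0.23 (adjusted p = 4.94e-11). All 4 mESC arrays lay under the dim level, so no fold is given against them. ES_HLC lay below Ad_Hep by -2.37 ± 0.24, which is 5.19-fold lower (adjusted p = 5.23e-06). ES_HLC replicate 3, with its higher albumin, did not stand apart for Serpina3n.

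Taking the 6 genes as a group, 4 rose and 0 fell in ES_HLC over mESC, where 8.61% of all genes rose and 7.35% fell (16% either way). In Ad_Hep over mESC 4 rose and 0 fell, where 11% of all genes rose and 15.6% fell (26.6% either way). Between ES_HLC and Ad_Hep 2 were higher in ES_HLC (Serpinb9 and Serpinb6b), where 13.9% of all genes were, and 2 were lower (Serpinb1a and Serpina3n), where 9.12% were (23% either way). The groups did not overlap for 5, 5 and 4 of the 6 genes in those comparisons, against 34.6%, 46.9% and 45.1% of all genes. The median difference of the 6 genes was 2.03, 1.08 and 0.79, and that of all genes -0.01, 0.05 and -0.04. Each comparison shares a group of arrays with the others, so they are not independent.

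**Figure D2:**
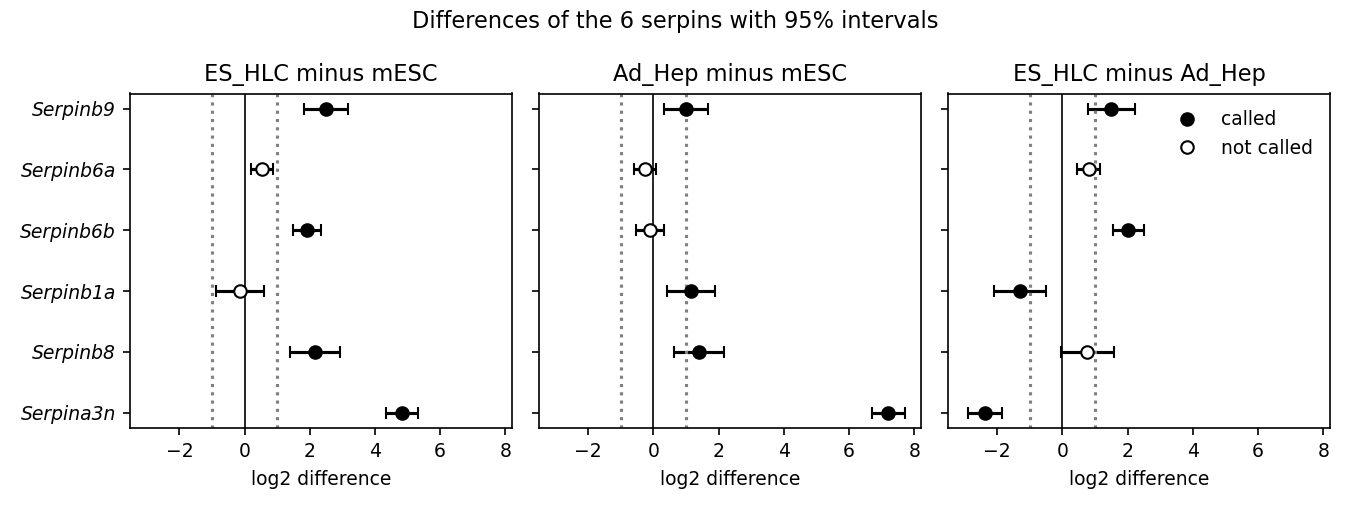
Log2 difference of each measured serpin in the 3 comparisons, ES_HLC minus mESC, Ad_Hep minus mESC and ES_HLC minus Ad_Hep, with 95% intervals from the limma fit. Serpina3n was at 4.83, 7.21 and -2.37, and Serpinb9 was above 0 in all 3.

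Among the 24 other measured clade B and A3 serpins, the rises in ES_HLC were in genes of the same chromosome group as Serpinb9 and in Serpinb2 on chromosome 1. In ES_HLC over mESC 4 rose and 1 fell, in Ad_Hep over mESC 0 rose and 2 fell, and in ES_HLC over Ad_Hep 5 rose and 0 fell. Over all genes the shares called either way in those comparisons were 16%, 26.6% and 23%. By direction, 8.61%, 11% and 13.9% of all genes rose and 7.35%, 15.6% and 9.12% fell. The counts called either way in ES_HLC lie near the either-way shares and that in Ad_Hep over mESC under its share. Most of the 24 were dim: 16 of the 20 clade B genes and all 4 Serpina3 genes averaged under the dim level in every group. Serpinb9b, the granzyme M inhibitor, was at 9.69, 11.31 and 11.39 in ES_HLC, 5.66, 5.65 and 4.87 in Ad_Hep, and 6.67, 7.28, 7.75 and 6.95 in mESC. It rose by 3.63 ± 0.39 in ES_HLC over mESC (adjusted p = 1.84e-05) and by 5.40 ± 0.42 over Ad_Hep (adjusted p = 3.7e-07). Ad_Hep lay below mESC by -1.77 ± 0.39 (adjusted p = 0.0024), a call lost when its clusters were averaged (-0.68, adjusted p = 0.0801). A second, dimmer cluster of Serpinb9b disagreed with it in part: it rose by 1.20 ± 0.22 in ES_HLC over mESC, differed by 0.78 ± 0.23 between ES_HLC and Ad_Hep (adjusted p = 0.0277), under the size threshold, and by 0.42 ± 0.22 between Ad_Hep and mESC (adjusted p = 0.183), with the opposite sign.

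Serpinb9e, a further copy with no role given here, was at 4.28, 6.90 and 7.51 in ES_HLC, 3.27, 3.54 and 3.64 in Ad_Hep, and 2.18, 3.03, 2.66 and 2.71 in mESC. It rose by 3.58 ± 0.56 in ES_HLC over mESC (adjusted p = 3.59e-04) and by 2.75 ± 0.60 over Ad_Hep (adjusted p = 0.0028). Serpinb9f rose by 1.41 ± 0.37 over mESC (adjusted p = 0.0118) and by 1.71 ± 0.40 over Ad_Hep (adjusted p = 0.00429); the call over mESC was lost without ES_HLC replicate 2 (1.10, adjusted p = 0.0639) or 3 (1.12, adjusted p = 0.0575). In Serpinb9b, Serpinb9e and Serpinb9f, ES_HLC replicate 1 was the lowest of its group. Serpinb9g, whose window was 95.9% identical to that of Serpinb9e, differed by 0.17 ± 0.26 between ES_HLC and mESC (adjusted p = 0.713).

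Serpinb2, an inhibitor of urokinase, was at 3.38, 4.97 and 6.63 in ES_HLC, 2.95, 3.39 and 3.09 in Ad_Hep, and 3.51, 2.87, 3.16 and 2.96 in mESC. It rose by 1.87 ± 0.53 over mESC (adjusted p = 0.0176), its groups overlapped, and the difference was 1.05 without ES_HLC replicate 3. Over Ad_Hep it rose by 1.85 ± 0.57 (adjusted p = 0.0214), which was lost without ES_HLC replicate 3 (1.03, adjusted p = 0.0542), Ad_Hep replicate 1 (1.75, adjusted p = 0.0623) or Ad_Hep replicate 3 (1.82, adjusted p = 0.0605). Serpinb9c rose by 1.31 ± 0.48 in ES_HLC over Ad_Hep (adjusted p = 0.0497), a call lost on leaving out any 1 array other than ES_HLC replicate 1, and the difference was 0.60 (adjusted p = 0.155) without ES_HLC replicate 3. Serpinb6c ran the other way: it lay below mESC by -2.49 ± 0.31 in ES_HLC (adjusted p = 5.48e-05) and by -2.05 ± 0.31 in Ad_Hep (adjusted p = 1.06e-04). The other 4 measured Serpina3 genes averaged under the dim level in every group; none was called, and at an unadjusted p under 0.05 there were 0, 0 and 2 of them in ES_HLC over mESC, Ad_Hep over mESC and ES_HLC over Ad_Hep.

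**Figure D3:**
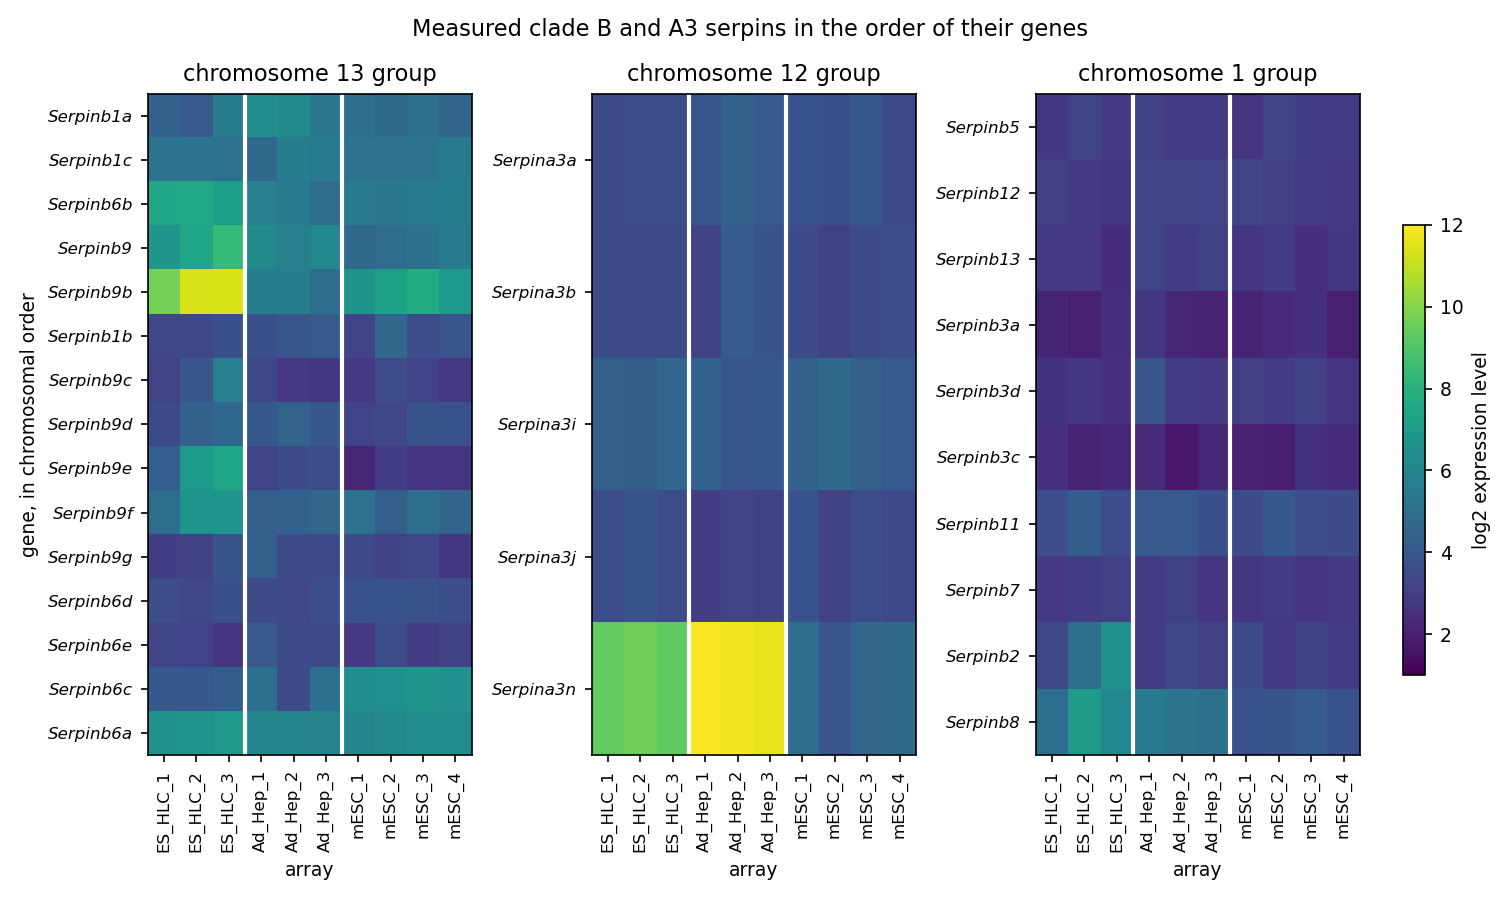
Log2 expression level of the measured clade B and A3 serpins on each array, in the order of their genes on chromosomes 13, 12 and 1, with ES_HLC, Ad_Hep and mESC arrays from left to right. Serpinb9b reached 11.39 in ES_HLC and Serpina3n 11.92 in Ad_Hep.

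The 24 measured serpins of other clades differed mainly between Ad_Hep and the other groups. In Ad_Hep over mESC 16 rose and 1 fell, in ES_HLC over mESC 3 rose and 0 fell, and in ES_HLC over Ad_Hep 1 rose and 16 fell. The shares of all genes called either way were 26.6%, 16% and 23% in that order. In Ad_Hep over mESC, antithrombin (Serpinc1) rose by 8.16 ± 0.28 and heparin cofactor (Serpind1) by 7.86 ± 0.20. The collagen chaperone Serpinh1 rose in ES_HLC, by 2.87 ± 0.38 over mESC and 4.41 ± 0.40 over Ad_Hep.

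The proteases that the serpins act on were counted next. Of 12 granzyme and cytotoxic granule genes, none was called in ES_HLC over mESC (2 had an unadjusted p under 0.05) or over Ad_Hep (3 had). In Ad_Hep over mESC 1 rose, Srgn, the proteoglycan of secretory granules, by 1.02 ± 0.35 (adjusted p = 0.0338), a call lost without Ad_Hep replicate 1 (0.84), Ad_Hep replicate 3 (0.98), mESC replicate 1 (0.78) or mESC replicate 3 (0.91). Granzyme B was at 4.09, 4.26 and 3.81 in ES_HLC, 3.91, 4.60 and 4.12 in Ad_Hep, and 3.85, 3.60, 4.11 and 3.69 in mESC, all under the dim level. Of 33 proteases listed as targets of clade B and A3 serpins, 10 rose and 2 fell in ES_HLC over mESC, 10 rose and 4 fell in Ad_Hep over mESC, and 6 rose and 8 fell in ES_HLC over Ad_Hep. For each list in this paragraph, the shares of all genes called either way in those comparisons were 16%, 26.6% and 23%. Tissue plasminogen activator Plat rose by 3.52 ± 0.35 in ES_HLC over mESC. Among 28 acute phase and STAT3 pathway genes, 5 rose and 2 fell in ES_HLC over mESC, and 20 rose and 2 fell in Ad_Hep over mESC. In ES_HLC over Ad_Hep 3 of them rose and 15 fell. Over mESC in ES_HLC, the oncostatin M receptor Osmr rose by 2.98 ± 0.18 and the kinase Jak2 by 2.79 ± 0.23. Oncostatin M itself (Osm) lay below mESC, by -1.60 ± 0.24 in ES_HLC and -1.39 ± 0.24 in Ad_Hep. Among 26 interferon and NF-kB genes, 7 rose and 2 fell in ES_HLC and 12 rose and 1 fell in Ad_Hep over mESC. In ES_HLC over Ad_Hep 2 of the 26 rose and 5 fell. The interferon regulatory factor Irf2 rose over mESC by 2.14 ± 0.17 in ES_HLC and 3.72 ± 0.17 in Ad_Hep.

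For a ranking by likeness, all Serpinb and Serpina3 genes, predicted models, clone names, small RNAs and pseudogenes were left out, which kept 18405 genes. Among these, the genes whose centred levels lay closest to a serpin's were named by the root mean square difference over the 10 arrays. For Serpinb9 they were Lrrfip1 (0.303), Dusp22 (0.324) and Usp18 (0.329), a protease that removes the interferon-induced protein ISG15. For Serpina3n they were Tmem176a (0.486), Tmem176b (0.555) and Masp1 (0.603), a protease of the complement lectin pathway. These distances describe likeness over arrays that share 3 groups and have no test.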

How the data were processed

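The authors' deposited table holds log2 values of 41345 transcript clusters on 10 arrays, and these entered the fits with no further normalization. Tools listed per the submitters' processing notes, with no role given, are Transcriptome Analysis Console, RMA, R 3.3.1 and oligo 1.38.0; the genome build is not given in the sources used here. The log2 scale was read from the range of 1.27 to 13.58. Clusters with 1 symbol (23521) gave 22180 genes, the brightest cluster per gene. limma 3.58.1 in R 4.3.3 (lmFit, eBayes, 2-sided) was fitted once to the 10 arrays with 1 mean per group, and p-values were adjusted by Benjamini-Hochberg over 22180 genes. No scanner file was used, so no probe was tested against background, and precision is limited by how few arrays there are. Members, lists and tests were chosen with earlier results of these data known. Named genes were all members, up to 6 called clade B or A3 serpins, up to 4 called genes of each other list per comparison, from which a selection is printed, and the 3 nearest patterns of Serpinb9 and Serpina3n. The fit was tested on simulated data. Promoter windows came from RefSeq (GRCm38.p6) and were aligned with Biopython 1.88. Alternatives covered normalization, filters, weights, variance, the replicate block, thresholds and each array left out. Deviations of same-numbered samples from their group means correlated at r -0.19 to 0.14 over 9 pairs, which cannot exclude a shared origin.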

Additional observations from a re-analysis of the deposited data

Results flagged for a closer look

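Among the 4 mESC arrays, the gap of 1 array to its nearest neighbour passed the 95% critical value of Dixon's test, as a share of the group's range, for 4 of 57 named genes, against 2.9 expected by chance. Serpinb8 was at 4.15 on mESC replicate 3 and at 3.77, 3.82 and 3.79 on the others, a gap of 0.868 of the range. The share was 0.912 for Usp18, with mESC replicate 2 at 4.94, and 0.837 for Serpinf1, with the same array at 6.26. It was 0.855 for Htra1, with mESC replicate 1 at 6.34.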

How the results depend on the processing

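Counts of calls were computed under 21 alternatives and the log2 differences of members under 19 of them, the other 2 being thresholds; 10 left out 1 array. The Serpina3n differences and those of Serpinb9 and Serpinb6b in ES_HLC over mESC and over Ad_Hep kept their direction and side of the threshold in all of those run. The sign turned for Serpinb1a in ES_HLC over mESC without ES_HLC replicate 1 (0.03) or 2 (0.18; range -0.63 to 0.18), and for Serpinb6b in Ad_Hep over mESC without Ad_Hep replicate 3 (0.13; range -0.30 to 0.13); none of these was called. Leaving out 1 array gave 3349 to 3719, 5797 to 6010 and 4933 to 5272 genes called in ES_HLC over mESC, Ad_Hep over mESC and ES_HLC over Ad_Hep, against 3540, 5893 and 5106. In the same order it gave 4 to 4, 2 to 4 and 3 to 4 members, and 4 to 7, 2 to 2 and 3 to 5 other clade B and A3 serpins. With no minimum difference 6390, 9205 and 8003 genes were called. At an adjusted p under 0.01, 2 members were called in Ad_Hep over mESC, and 3 other serpins each in ES_HLC over mESC and over Ad_Hep. In ES_HLC over Ad_Hep, 3 of the 4 other serpins that remained were called with dim genes left out, against 5 of 24 in the main fit. With only the groups compared, 3 of 24 were called there, and in Ad_Hep over mESC 1 of 24 was called with clusters averaged. Under cyclic loess 52.0% of the genes called in Ad_Hep over mESC were higher, against 41.5%, and 50.5% in ES_HLC over Ad_Hep, against 60.4%. With the replicate number as a block, which leaves mESC replicate 4 without weight, 3518, 5926 and 5103 genes, 4, 3 and 4 members and 5, 2 and 4 other serpins were called; Serpinb1a in Ad_Hep over mESC lost its call (1.06, adjusted p = 0.059). Deviations from the group means correlated at -0.19 to 0.14 between same-numbered arrays of different groups and at -0.25 to 0.23 between the others. With 3 or 4 arrays per group, these values cannot decide whether same-numbered arrays share more than a number. Of 114 other named differences, 16 changed side in some alternative and 0 reversed. The cause of these changes was not tested.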

Other observations

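Of 19 granzyme B substrates and apoptosis genes, 3 rose and 3 fell in ES_HLC over mESC, 2 rose and 8 fell in Ad_Hep over mESC, and 7 rose and 0 fell in ES_HLC over Ad_Hep. The shares of all genes called either way were 16%, 26.6% and 23% in that order. Casp8, the initiator caspase of death receptors, rose by 2.35 ± 0.27 in ES_HLC (adjusted p = 3.51e-05) and by 2.43 ± 0.27 in Ad_Hep (adjusted p = 9e-06) over mESC. Parp1, a DNA repair enzyme cut by caspases and granzyme B, lay below mESC by -2.29 ± 0.26 in ES_HLC (adjusted p = 2.74e-05) and by -2.60 ± 0.26 in Ad_Hep (adjusted p = 2.86e-06). Birc5 (survivin), an inhibitor of apoptosis that dividing cells make, lay below mESC by -1.51 ± 0.44 in ES_HLC (adjusted p = 0.0213) and by -4.18 ± 0.44 in Ad_Hep (adjusted p = 5.1e-06). The call in ES_HLC was lost without ES_HLC replicate 2 (-0.82, adjusted p = 0.0634), mESC replicate 1 (-1.43, adjusted p = 0.0501) or mESC replicate 3 (-1.43, adjusted p = 0.0542). In ES_HLC over Ad_Hep it rose by 2.67 ± 0.47 (adjusted p = 0.000597).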
